A study of Mus musculus with 17 samples.

Results

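Oxidative phosphorylation is carried out by 5 protein complexes of the inner mitochondrial membrane, and their subunits come from 2 genomes. The genes examined here are the protein-coding genes whose symbol starts with Nduf (not Ndufaf), Uqcr, Atp5 or Cox4 to Cox8, together with Sdha, Sdhb, Sdhc, Sdhd, Cyc1 and the protein-coding genes of the mitochondrial genome. This rule, which used no measured value, gave 100 genes, of which 87 lie in the nucleus and 13 in the mitochondrial genome. All but 1 of them, 99, are among the 53313 genes listed in all 17 libraries. A further 13 matching symbols were not protein-coding genes and were left out.

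RNA was sequenced from primary tubular epithelial cells (PTEC), labelled as proximal tubular cells, and from whole kidney tissue. PTEC were grown from collagenase-digested kidneys of wild-type C57BL/6JRj mice, a strain that the labels write as C57BL/6Rj. Whether the cultures came from separate animals is not stated, so that p-values measure the spread between these cultures. The non-senescent group was 4 cultures without irradiation at day 6, and the senescent group was 4 cultures at day 16 that had received 10 Gy of ionising radiation. Irradiation and the longer time in culture therefore cannot be told apart. The kidneys came from 9 male wild-type C57BL/6JRj mice without treatment, 3 each at 3, 12 and 24 months of age. They hold all the cell types of the organ, so that fewer cells of a type and less RNA per cell cannot be told apart.

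In the respiratory chain, complex I (NADH dehydrogenase) and complex II (succinate dehydrogenase) pass electrons to coenzyme Q, complex III passes them to cytochrome c, and complex IV (cytochrome c oxidase) passes them to oxygen. Complexes I, III and IV pump protons on the way, and complex V (ATP synthase) uses the proton gradient to make ATP. Proximal tubule cells are rich in mitochondria and rely on this pathway to reabsorb solutes. Every complex but complex II takes subunits from both genomes. The nuclear genes are transcribed one by one, whereas the mitochondrial genes are read as long transcripts from a few start points and then processed.

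By complex, the nuclear members were 36 genes of complex I, 4 of complex II, 9 of complex III, 20 of complex IV and 18 of complex V. The mitochondrial members were 7 genes of complex I, 1 of complex III, 3 of complex IV and 2 of complex V. Ndufa4 and Ndufa4l2, named after complex I, were counted with complex IV, where the NDUFA4 protein is now placed. Atp5s, a coupling factor, was counted with complex V. The member not listed in every library is a second gene identifier with the symbol Atp5o, which had no counts in the kidneys and was not listed for PTEC.

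Several features of the libraries bear on all values below. Levels are given as CPM, the counts of a gene scaled to a common library total. Total counts ranged from 26963442 to 35409144 in PTEC and from 37311247 to 66894790 in the kidneys. The PTEC files list 53715 genes, the 3 month kidneys 54146 and the older kidneys 55401, so the gene set and the step from 3 months to the older ages cannot be told apart. The balance of short and long transcripts also differed between libraries. It was measured on other protein-coding genes, as the mean log2 level of genes under 1000 exonic bases minus that of genes of at least 3000. In both PTEC groups the culture numbered 3 stood apart, at -0.36 against -1.22 to -1.15 in the other non-senescent cultures and at -0.92 against -1.45 to -1.40 in the other senescent cultures. In the kidneys this measure ran from -0.24 to 0.95.

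The 13 mitochondrial members did not give comparable counts, and part of the mitochondrial genome was almost absent from the files. A low-count stretch of 6 neighbouring genes, mt-Co2, mt-Atp8, mt-Atp6, mt-Co3, mt-Nd3 and mt-Nd4l (GRCm38, chrM:7013-10173), held 69 to 335 counts per library in PTEC and 1079 to 14214 in the kidneys. The 7 genes on either side of it held 0.609% to 1.83% of all counts in PTEC and 6.82% to 10.0% in the kidneys. The same stretch has a copy on chromosome 1, which also takes in the end of mt-Co1 and the first part of mt-Nd4 on either side, and whose annotated pieces are unprocessed pseudogenes on the minus strand.

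The sequences show how close the copy is. Over their aligned length mt-Co2 and its copy Gm28661 (chr1:24614885-24615565), mt-Atp6 and Gm10925 (chr1:24613974-24614651), mt-Co3 and Gm28437 (chr1:24613189-24613971) and mt-Nd4l and Gm10222 (chr1:24612407-24612700) had 0 differences. mt-Nd3, a small complex I subunit, differed from Gm28438 (chr1:24612775-24613119) at 1 of 345 bases, T3C, counted from the first base of the mt-Nd3 transcript. Its first 120 bases are shown with those of the copy, with the differing base in capitals.
mt-Nd3: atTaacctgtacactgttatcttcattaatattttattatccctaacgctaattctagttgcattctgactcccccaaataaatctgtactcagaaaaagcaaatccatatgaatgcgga
Gm28438: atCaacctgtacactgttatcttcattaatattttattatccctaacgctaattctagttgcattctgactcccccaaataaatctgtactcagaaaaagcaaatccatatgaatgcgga

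The left edge of the copy lies inside mt-Co1, the catalytic core of complex IV. Gm29216 (chr1:24615706-24616197) matches mt-Co1 from base 1054 to its end, and its 6 differences, T1056A, C1057T, A1059G, A1060G, C1062A and A1066T, all fall in the first bases. The stretch from base 1054 to 1143 is shown for both, again with the differing bases in capitals.
mt-Co1: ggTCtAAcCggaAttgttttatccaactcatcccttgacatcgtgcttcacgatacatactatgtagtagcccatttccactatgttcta
Gm29216: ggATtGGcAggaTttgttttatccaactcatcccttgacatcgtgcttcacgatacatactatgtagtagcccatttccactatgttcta

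In terms of 76-base windows, the length of the reads, 97.8% to 99.9% of the windows of mt-Co2, mt-Atp6, mt-Co3, mt-Nd3 and mt-Nd4l were also found in the transcript of another gene. For mt-Nd4 the share was 61.5%, through Gm28439 (chr1:24611535-24612410), and for mt-Co1 it was 39.4%. It was 5.6% for mt-Nd2, 1.5% for mt-Nd5, and 0% for mt-Nd1, mt-Nd6 and mt-Cytb. mt-Atp8 (chrM:7766-7969) also had a share of 0%, and it lies between mt-Co2 and mt-Atp6. These shares were counted over annotated transcripts. The copies had medians over the 17 libraries of 5 to 208 counts, but single libraries were far higher. Gm28437 reached 5508 counts in the first 12 month kidney, where mt-Co3 had 362, and Gm29216 reached 1972 in the second 12 month kidney. How reads that match both places were counted is not given in the sources used here, and its part in these values was not tested. Among the nuclear members 48 of 87 shared no window with another gene and 5 shared at least 20%: Ndufa13, Ndufb6, Atp5o, Atp5g2 and the second Atp5o identifier.

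**Figure D1:**
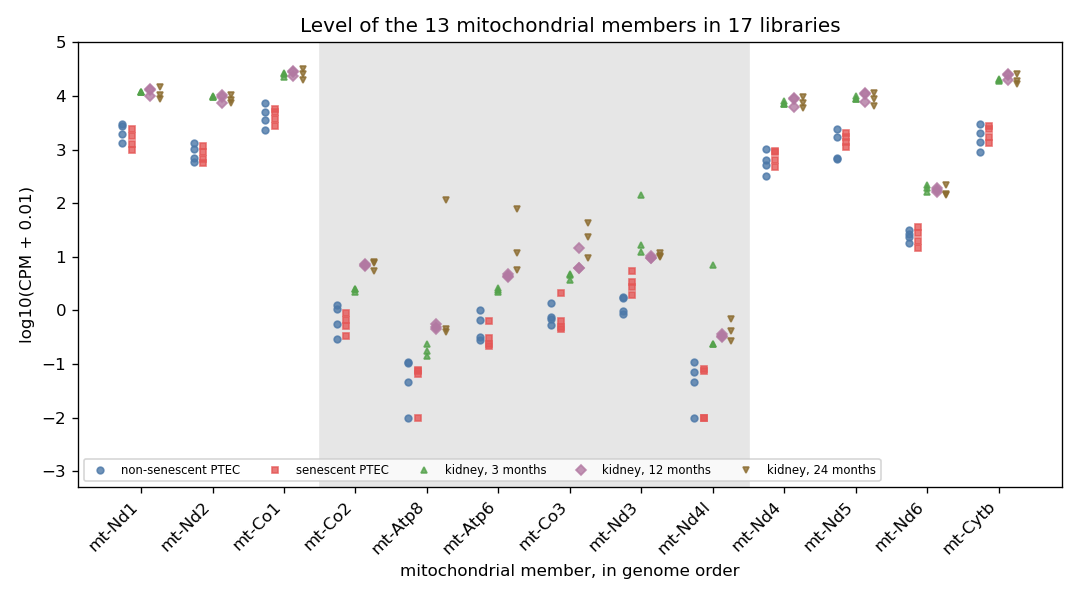
Level of each mitochondrial member, as log10 of CPM plus 0.01, in the order of the genes along the mitochondrial genome, with 1 point per library and the shape and colour giving the group; the grey band marks the 6 genes of the low-count stretch. Outside the band mt-Nd6 is the lowest gene and the other 6 stand between 318 and 31419 CPM, whereas inside the band single kidneys reach 112, 76.9 and 145 CPM in mt-Atp8, mt-Atp6 and mt-Nd3.

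Outside the low-count stretch 6 of the 7 mitochondrial members, all but mt-Nd6, stood above every nuclear member per kilobase of exon, in the mean of the 9 kidneys and in that of the 8 PTEC cultures. In the non-senescent cultures alone mt-Nd4 and Atp5b stood level, at 452.5 and 453.1 RPKM. In the mean of the 9 kidneys (RPKM, reads per kilobase and scaled to library size), mt-Cytb, the only mitochondrial subunit of complex III, stood at 18545 RPKM, mt-Co1 at 16724, mt-Nd1 at 12325, mt-Nd2 at 8919, mt-Nd4 at 5584 and mt-Nd5 at 5132. mt-Nd6, the only one encoded on the other strand (chrM:13552-14070, minus), stood at 345 RPKM in the kidneys and 47.6 in PTEC, within the range of the nuclear members. In the 8 PTEC cultures the level of mt-Co1 was 2879 RPKM, that of mt-Nd1 2039 and that of mt-Cytb 1706.

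The nuclear members spread widely. Their median level was 176 RPKM in the kidneys and 50.8 in PTEC. The highest in the kidneys were Cox4i1, the common form of complex IV subunit 4, at 1002 RPKM, Cox8a at 959, Cox6a1 at 878, Atp5b, the catalytic beta subunit of ATP synthase, at 809 and Cox6b1 at 792. The lowest that passed the filter on low counts were Cox4i2 at 0.807, Cox6a2 at 1.48, Ndufa4l2 at 3.04, Cox6b2 at 4.50 and Atp5s at 6.44 RPKM. By complex the median kidney level ran from 140 RPKM in complex I to 246 in complex III.

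Most of the low genes are alternative forms of complex IV subunits known from other tissues. Of the pairs, Cox4i1 stood at 1002 RPKM in the kidneys and Cox4i2, the form induced by low oxygen, at 0.807. Ndufa4 stood at 508 and Ndufa4l2, also induced by low oxygen, at 3.04. Cox6a1 exceeded the heart and muscle form Cox6a2, at 878 against 1.48, and Cox7a2 exceeded the heart and muscle form Cox7a1, at 461 against 34.6. Cox7a2l stood at 87.6. Cox7b stood at 317 RPKM and the testis form Cox7b2 had at most 3 counts in any library. Cox8c, also a testis form, had at most 1 count in any library. The 3 genes that encode the identical c subunit of ATP synthase differed as well, with Atp5g3 at 442, Atp5g1 at 67.8 and Atp5g2 at 36.4 RPKM.

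**Figure D2:**
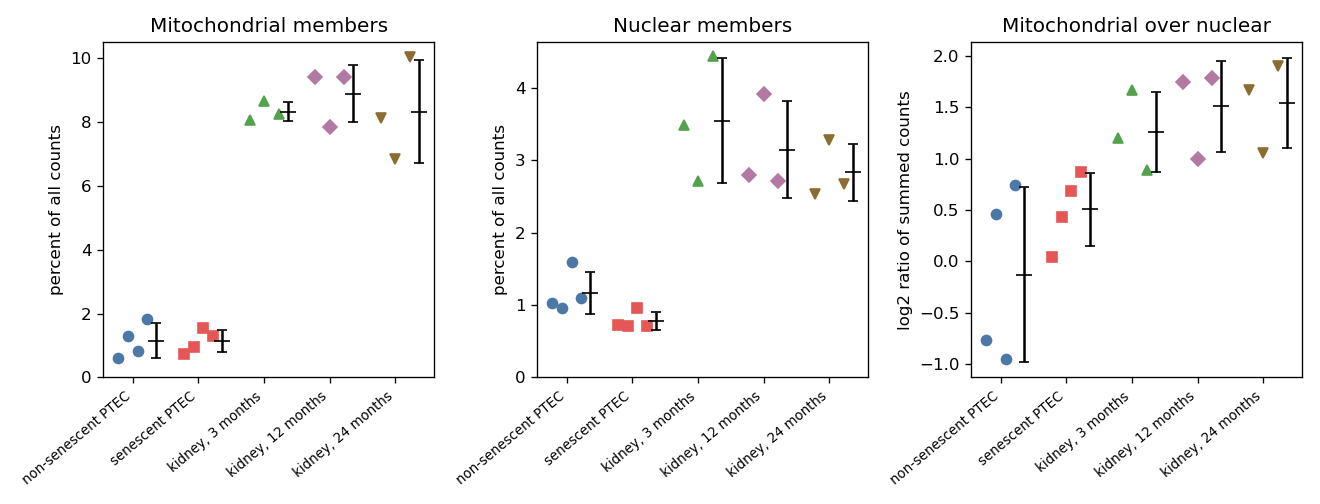
Percent of all counts of a library that fell on the mitochondrial members (left) and the nuclear members (middle), and log2 of the ratio of both sums (right), with 1 point per library in 5 groups; the black bars show the mean and 1 SD. The mitochondrial share stands at 0.609% to 1.83% in PTEC and 6.82% to 10.0% in the kidneys.

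The senescent PTEC were compared with the non-senescent PTEC to ask how the expression of both genomes differed. The mitochondrial members took 0.609%, 1.31%, 0.826% and 1.83% of all counts in the 4 non-senescent cultures and 0.740%, 0.969%, 1.55% and 1.31% in the 4 senescent cultures. The nuclear members took 1.04%, 0.958%, 1.60% and 1.09% in the non-senescent and 0.719%, 0.718%, 0.965% and 0.716% in the senescent cultures. The mitochondrial shares overlapped widely, while only the senescent culture numbered 3 reached into the range of nuclear shares of the non-senescent cultures. In every pair of cultures with the same number the nuclear share was lower in the senescent culture. The ratio of mitochondrial to nuclear counts was 0.588, 1.37, 0.517 and 1.68 in the non-senescent and 1.03, 1.35, 1.61 and 1.82 in the senescent cultures. On the log2 scale the mean ratio was -0.13 ± 0.85 (SD, n = 4) and 0.51 ± 0.36 (SD, n = 4), and it was higher in the senescent culture in 3 of the 4 pairs of cultures with the same number. The difference in mean log2 ratio, 0.64, was 0.36 without non-senescent culture 3, 0.42 without non-senescent culture 1 and 0.93 at most with 1 culture left out.

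Part of the nuclear subunit genes of each of the 5 complexes were called down in senescent PTEC, though the number called depended on single cultures. By edgeR's quasi-likelihood test, at a Benjamini-Hochberg adjusted p under 0.05 and a log2 fold change past 0.5, 36 of the 81 nuclear members tested fell and 1 rose, that is 44.4% and 1.23% of them. Over all 15434 genes tested, 19.7% fell and 20.1% rose. With 1 culture left out the number that fell was 15 (18.5%) to 42 (51.9%), beside 15.1% and 19% of all genes in those 2 fits. With a measure of the balance of short and long transcripts as a covariate it was 14 (17.3%), no higher a share than the 18.5% of all genes. Without senescent culture 1 or 4 no member of complex IV was called down. The median log2 fold change was -0.53 over the nuclear members and -0.00 over all genes, and 77 of the 81 nuclear members had a lower mean. The nuclear median was -0.29 without non-senescent culture 3 and between -0.63 and -0.49 without any other single culture. In 29 of them every senescent culture lay below every non-senescent culture, which is 35.8% against 19.9% of all genes tested, and in 1 every senescent culture lay above, against 22.1% of all genes.

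None of the 7 mitochondrial members outside the low-count stretch was called, and their median log2 fold change was -0.00, the same as that of the 5 without the partly copied mt-Co1 and mt-Nd4. The median of the 7 was -0.23 without senescent culture 3 and 0.26 without non-senescent culture 4. None of them reached an unadjusted p of 0.05 in edgeR, and DESeq2 called none of them. Their log2 fold changes ran from -0.50 for mt-Nd1 to 0.24 for mt-Nd4, and with 1 culture left out from -0.74 to -0.32 for mt-Nd1, from 0.03 to 0.58 for mt-Nd4, from -0.01 to 0.64 for mt-Nd5 and from -0.05 to 0.51 for mt-Cytb. Their standard errors were larger than those of the nuclear members, with a median of 0.34 against 0.22, so that a fall of the nuclear size would be harder to see. The difference between the genomes itself was not tested.

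The spread of the mitochondrial genes lay between cultures of the same group. mt-Co1 stood at 2277, 4995, 3516 and 7536 CPM in the non-senescent and 2810, 3644, 5751 and 5054 CPM in the senescent cultures. mt-Cytb stood at 897, 2046, 1396 and 2994 CPM in the non-senescent and 1354, 1754, 2782 and 2387 CPM in the senescent cultures. In both genes the 4 senescent values lay inside the range of the non-senescent ones. For mt-Nd5, mt-Nd4, mt-Nd2 and mt-Nd6 the log2 fold changes were 0.21, 0.24, -0.12 and -0.00, with adjusted p from 0.599 to 0.998 in edgeR.

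Complex V had the lowest median log2 fold change, at -0.79, and 11 of its 17 nuclear members (64.7%) fell, beside 19.7% of all genes. Atp5b (chr10:128083273-128090391), the catalytic beta subunit, stood at 1855, 1643, 2446 and 1734 CPM in the non-senescent and 998, 936, 1094 and 997 CPM in the senescent cultures. The groups did not overlap, and the log2 fold change was -0.93 ± 0.16 (SE) with an adjusted p of 0.0016 in edgeR. Atp5a1, the alpha subunit that forms the catalytic head with it, stood at 686, 628, 876 and 682 against 365, 357, 400 and 369 CPM, a log2 fold change of -0.95 ± 0.14 (SE).

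Members of the membrane part and the stalk of the ATP synthase were among the 11, while Atp5g1, Atp5h, Atp5l, Atp5d, Atp5e and Atp5s were not called. A fit with the replicate number as a block compared cultures of the same number, though no pairing of them is stated. It called Atp5g1, Atp5d and Atp5e down, by 0.55, 0.57 and 0.53 (edgeR adjusted p 0.010, 0.0037 and 0.0043). Atp5j of the 11 lost its call in it, at a log2 fold change of -0.50 that does not pass 0.5. Over the 81 nuclear members that fit called 40 (49.4%) down, beside 21.3% of all genes. Atp5g3 (chr2:73908447-73911326), which encodes the c subunit of the rotating ring, stood at 327, 291, 526 and 337 CPM in the non-senescent and 161, 160, 209 and 174 CPM in the senescent cultures. It fell by 1.07 on the log2 scale (SE 0.20, edgeR adjusted p 0.0022), and Atp5g2, which encodes the same c subunit, fell by 1.03. The third gene of the c subunit, Atp5g1, had a log2 fold change of -0.61 with an adjusted p of 0.061 in edgeR, and it was also called down without the filter on low counts. Atp5o, the stalk subunit that joins head and membrane part, fell by 1.02, at 175, 168, 340 and 172 against 95.3, 95.7, 134 and 96.0 CPM.

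In complex III 6 of 9 members (66.7%) fell, beside 19.7% of all genes, with a median log2 fold change of -0.69. Cyc1 (chr15:76343523-76346260), which encodes cytochrome c1, the subunit that hands electrons to cytochrome c, stood at 184, 167, 292 and 177 CPM in the non-senescent and 92.3, 88.9, 121 and 97.9 CPM in the senescent cultures. Its groups did not overlap and its log2 fold change was -1.03 ± 0.20 (SE), with an edgeR adjusted p of 0.0026. Uqcrfs1, the Rieske iron-sulphur subunit, fell by 0.96 and Uqcrc1, a core subunit, by 0.91. mt-Cytb, the mitochondrial partner of these subunits, had a log2 fold change of 0.17 ± 0.36 (SE) and an adjusted p of 0.72 in edgeR.

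In complex II, which has no mitochondrial subunit, 2 of the 4 genes were called. Sdhd (chr9:50596357-50603812), a membrane anchor subunit, stood at 174, 160, 227 and 155 CPM in the non-senescent and 84.3, 82.0, 104 and 86.2 CPM in the senescent cultures, with no overlap. It fell by 1.005 on the log2 scale (SE 0.15, edgeR adjusted p 0.00075). Sdha, the subunit that oxidises succinate, fell by 0.52 (SE 0.12, edgeR adjusted p 0.0068). Sdhb, the iron-sulphur subunit, and Sdhc, the other anchor, had log2 fold changes of -0.52 and -0.39, and their edgeR adjusted p were 0.083 and 0.081.

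Complex I had the most members and 11 of 36 (30.6%) fell, beside 19.7% of all genes, with a median log2 fold change of -0.45. Ndufs1, the largest iron-sulphur subunit of the electron path, stood at 152, 142, 157 and 150 CPM in the non-senescent and 99.3, 102, 98.4 and 102 CPM in the senescent cultures. It varied little within groups and fell by 0.58 (SE 0.10, edgeR adjusted p 0.0015). Ndufs7 fell by 0.87, Ndufb5 by 0.82 and Ndufa5 by 0.81, and no member of complex I rose. With the short-transcript covariate Ndufs7, Ndufb5 and Ndufa5 had log2 fold changes of -0.46, -0.46 and -0.37, which do not pass 0.5. In that fit Ndufs1 was the only member of complex I called down. Ndufa1, Ndufa13 and Ndufs5 had log2 fold changes of -0.01, -0.03 and -0.07.

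In complex IV calls went both ways, with 6 of 15 members (40.0%) down, 1 (6.67%) up and a median log2 fold change of -0.53. Of all genes 19.7% fell and 20.1% rose. Among the common subunits Cox5a fell by 0.92, Cox7a2 by 0.84, Cox5b by 0.80, Cox7b by 0.61 and Cox8a by 0.60. Cox4i1, Cox6b1 and Cox6a1 had log2 fold changes of -0.51, -0.53 and -0.31 and their edgeR adjusted p lay between 0.12 and 0.35. Ndufa4 had a log2 fold change of -0.22 and Cox7a2l of -0.33. Cox7a1, the muscle form, fell by 1.26, but from a low level of 2.36 ± 1.39 to 0.975 ± 0.255 CPM (SD, n = 4 each), and its groups overlapped.

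The 1 nuclear member that rose was Cox6b2 (chr7:4751792-4753094), the form of complex IV subunit 6B known from testis. It stood at 1.23, 1.64, 3.45 and 4.06 CPM in the non-senescent and 17.7, 16.0, 25.4 and 12.2 CPM in the senescent cultures. The groups did not overlap, and the log2 fold change was 2.79 ± 0.40 (SE) with an edgeR adjusted p of 0.00052. The common form Cox6b1 remained more abundant, at 146 ± 31.6 CPM (SD, n = 4) in senescent PTEC.

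The 1 mitochondrial member that rose was mt-Nd3, which lies in the low-count stretch. It stood at 0.861, 0.952, 1.73 and 1.73 CPM in the non-senescent and 2.67, 3.35, 5.40 and 1.93 CPM in the senescent cultures, from 28 to 200 counts. Its log2 fold change was 1.35 ± 0.38 (SE) with an edgeR adjusted p of 0.017 and its groups did not overlap. mt-Nd4, the next gene after the stretch that is itself copied in part, stood at 318 to 1021 CPM and was not called. mt-Co2 and mt-Co3, the other genes of the stretch tested in PTEC, had log2 fold changes of -0.38 and 0.16.

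**Figure D3:**
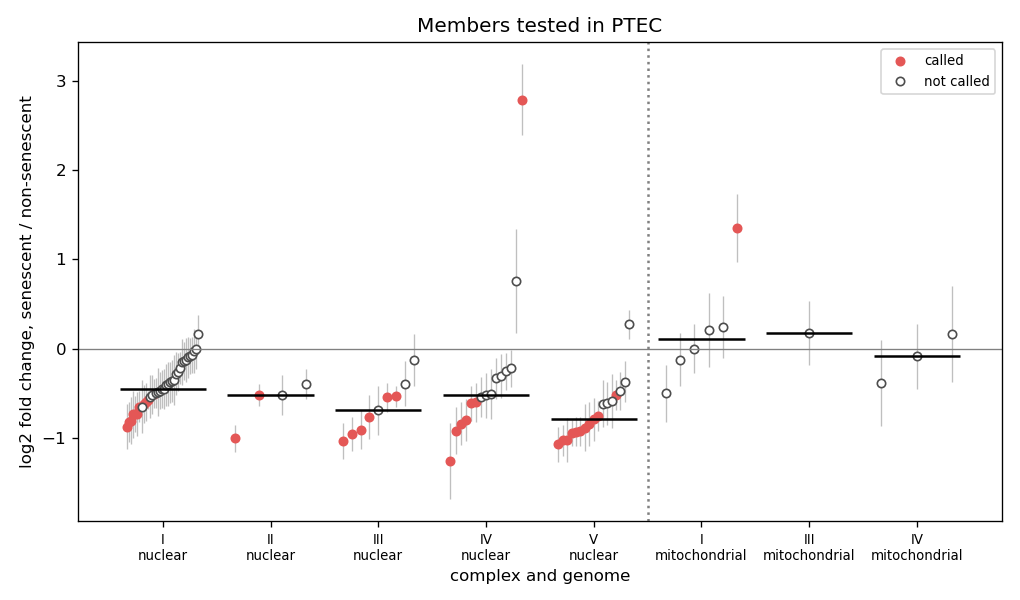
Log2 fold change of each member tested, senescent over non-senescent PTEC (4 cultures each), by complex, with the nuclear members left and the mitochondrial members right of the dotted line; grey bars are standard errors, filled points are called members and black lines are medians. The nuclear medians lie between -0.45 and -0.79 and Cox6b2 stands alone at 2.79, whereas mt-Nd3 is the only called mitochondrial member.

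The number of nuclear members called depended on the cultures. Without both cultures numbered 3, which stood apart in the balance of short and long transcripts, 30 fell, of which 27 were among the 36, beside 19.1% of all genes. Without senescent culture 1 the number was 15 (18.5% of 81), beside 15.1% of all genes called down in that fit. It was 16 (19.8%) without senescent culture 4, beside 15.8%, and 19 (23.5%) without senescent culture 2, beside 16%. Without non-senescent culture 3 it was 20 (24.7%), beside 17.8%, and without non-senescent culture 2 it was 42 (51.9%), beside 19%. With the short-transcript measure as a covariate, an alternative chosen after seeing the data, 14 fell and the median log2 fold change of the nuclear members was -0.19. These 14 of 81 are a share no higher than the 18.5% of all genes called down in that fit. The measure itself was lower in the senescent cultures, at -1.30 ± 0.25 against -0.98 ± 0.42 (mean and SD, n = 4 each). The covariate can therefore take up part of the difference between the groups. Without it, the rank correlation of log2 fold change with exonic length was -0.14 over the 81 nuclear members. The part of transcript length in the fall was not tested. The members called down in each of the 8 fits without 1 culture were 12, and these were also called with the covariate: Atp5a1, Atp5b, Atp5c1, Atp5f1, Atp5g2, Atp5g3 and Atp5o of complex V, Cyc1, Uqcrc1 and Uqcrfs1 of complex III, Ndufs1 of complex I and Sdhd of complex II. None of the 12 belongs to complex IV. Cox6b2 rose in each of these fits, by 2.55 to 3.09 in the fits without 1 culture and by 3.06 with the covariate.

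Markers of tubule and other cell types moved with these differences. The summed level of 14 proximal tubule markers was 299 to 1068 CPM in the non-senescent and 260 to 402 CPM in the senescent cultures, and 4 of the 7 tested fell. Lrp2 and Hnf4a were present in every culture, whereas Slc22a6 and Slc22a8 stayed under 0.4 CPM and Slc34a1 stood at 0.2 to 22.4 CPM in the non-senescent cultures. Of 8 fibroblast and pericyte markers, with sums of 15.4 to 103 and 113 to 414 CPM, 5 of the 7 tested rose. The 5 podocyte markers summed to 90.7 to 206 CPM in the non-senescent and 213 to 465 CPM in the senescent cultures, and 2 of the 4 tested rose. Of 9 leukocyte markers, with sums of 42.1 to 60.1 and 22.8 to 65.6 CPM, 2 of the 6 tested fell, and of 6 endothelial markers 1 rose and 1 fell, at sums of 65.3 to 221 and 59.3 to 229 CPM. The 7 loop of Henle and distal tubule markers summed to 17.7 to 49.6 CPM in the non-senescent and 1.34 to 3.76 CPM in the senescent cultures, and all 4 tested fell. Of the 7 collecting duct markers 2 of the 3 tested fell. These counts stand beside 19.7% of all genes called down and 20.1% called up. Pvalb was at 0 in every non-senescent culture, and Aqp2 and Foxi1, of the collecting duct list, were at 0 in every senescent culture. The part of these markers in the difference of the subunit genes was not tested.

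Lists of genes that serve the same complexes, chosen with earlier results of these data known, were read beside the 19.7% of all genes that fell. Of 12 transcriptional regulators of respiration 11 were tested, 7 (63.6%) fell and none rose, with a median log2 fold change of -0.59. They included the coactivators Ppargc1a, which fell by 2.07, and Ppargc1b, which fell by 2.64, the oestrogen-related receptors Esrrb (by 2.17) and Esrrg (by 1.55), and Nrf1 (by 0.56). Ppargc1b went from 4.89 ± 0.744 to 0.777 ± 0.249 CPM (SD, n = 4 each) with an edgeR adjusted p of 0.00011.

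Of the 77 mitochondrial ribosomal proteins tested, which translate the mitochondrial members, 34 (44.2%) fell and none rose, with a median of -0.56. Mrpl12 fell by 1.38, Mrpl40 by 1.13 and Mrpl18 by 1.11. Of 31 genes of mitochondrial DNA replication, transcription and RNA processing 10 (32.3%) fell and none rose, with a median of -0.42. Among them Dna2, a nuclease and helicase of DNA replication that also acts in the nucleus, fell by 3.71 on the log2 scale, Tbrg4 by 1.27, Fastkd5 by 0.99 and Lrpprc, which stabilises mitochondrial messenger RNAs, by 0.62.

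Of the 47 assembly factors tested 11 fell and none rose, with a median of -0.30, and the 23.4% that fell is near the background. Cox10, needed to make the haem of complex IV, fell by 0.95 and Ndufaf6 by 0.92. All 14 citric acid cycle genes tested had a lower mean and 10 (71.4%) fell, Idh2 by 1.76 and Idh3a by 1.01. Of 14 genes for cytochrome c and coenzyme Q synthesis 4 (28.6%) fell, among them Pdss1 by 2.23 and Cycs, the somatic cytochrome c, by 0.91, and Coq8a rose by 1.11.

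Because the regulators have known motifs, the promoters of the nuclear members were searched for 3 of them. RefSeq (GRCm38.p6) gave the 250 bases before and 50 after the start for 67 nuclear member symbols. Both strands were searched for GCGCA followed directly by its reverse complement (NRF1), CCGGAAGT (GABPA) and TCAAGGTCA (the oestrogen-related receptors), and none of these motifs contains another. The NRF1 letters were found in 5 of 67 members (7.46%) and in 1.07% of the 27025 genes of the table. The GABPA letters were found in 5 members (7.46%) and 4.31% of the genes, and the receptor letters in 2 members, Atp5g3 and Sdhd (2.99%), and 0.466% of the genes. Of the 36 members called down 28 were among these 67, and in them the counts were 3, 3 and 2. In the other 39 of the 67 they were 2, 2 and 0.

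The windows before the RefSeq start of 3 members called down show such matches, in capitals. That of Atp5g2 (chr15:102671048-102671137, minus) holds the NRF1 letters, that of Atp5g3 (chr2:73911329-73911418, minus) the receptor letters on the opposite strand, and that of Uqcrh, a small subunit of complex III that fell by 0.77 (chr4:116075071-116075160, minus), the GABPA letters on the opposite strand. The window of Atp5g2 lies inside the span of the gene in GENCODE release 21 (chr15:102662864-102672352), not before it. A match of letters describes the sequence only.
Atp5g2: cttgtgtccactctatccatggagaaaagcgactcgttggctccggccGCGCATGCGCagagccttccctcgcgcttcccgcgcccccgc
Atp5g3: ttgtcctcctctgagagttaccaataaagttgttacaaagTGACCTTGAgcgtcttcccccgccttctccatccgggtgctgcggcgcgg
Uqcrh: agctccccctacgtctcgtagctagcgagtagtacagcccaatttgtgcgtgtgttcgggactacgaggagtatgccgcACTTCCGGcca

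The kidneys of 3 ages were compared to ask whether the same genes differed with age in the whole organ. In the kidneys the nuclear members took 3.49%, 2.72% and 4.44% of all counts at 3 months, 2.81%, 3.93% and 2.72% at 12 months and 2.54%, 3.29% and 2.67% at 24 months. The mitochondrial members took 8.05%, 8.64% and 8.25%, then 9.41%, 7.85% and 9.39%, and then 8.10%, 6.82% and 10.0%. All 3 ages overlapped in both shares. The log2 ratio of mitochondrial to nuclear counts was 1.26 ± 0.39, 1.51 ± 0.44 and 1.54 ± 0.44 (SD, n = 3 each), and the differences between ages of 0.25, 0.29 and 0.03 were smaller than these SDs. With 1 kidney left out they ran from 0.07 (without the third 3 month kidney) to 0.51 (without the second 12 month kidney), from 0.11 (without the third 3 month or the third 24 month kidney) to 0.53 (without the second 24 month kidney), and from -0.22 (without the second 12 month kidney) to 0.28 (without the second 24 month kidney). Weighting each member alike gave log2 ratios of 0.22, 0.46 and -0.13 at 3 months and 0.60, 0.04 and 0.65 at 12 months. At 24 months they were 1.52, 0.34 and 0.99. The differences of this age from both others were then larger than those above, though the ages overlapped.

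No nuclear member passed the thresholds in any of the 3 age comparisons in edgeR. These comparisons share samples, and the calls among all 17067 genes tested were 1.22% up and 1.36% down from 3 to 12 months, 1.89% and 0.451% from 3 to 24 months, and 0.896% and 0.434% from 12 to 24 months. Of the 84 nuclear members tested, 1, 8 and 3 had an unadjusted p under 0.05 in edgeR. Of the 17067 genes tested 2820, 3106 and 2602 did, a larger share in each comparison. The median log2 fold changes of the nuclear members were -0.19, -0.40 and -0.21 and those of the 7 mitochondrial members outside the low-count stretch were 0.12, -0.06 and -0.10, while the medians over all genes were within 0.01 of 0. With 1 kidney left out the median of these 7 ran from 0.04 to 0.21, from -0.29 to 0.13 and from -0.30 to 0.04, and in the last 2 comparisons it was highest, and positive, without the second 24 month kidney. The nuclear medians also rested on single kidneys. From 3 to 12 months the median was 0.05 without the third 3 month kidney and -0.37 without the second, from 3 to 24 months it was -0.17 without the third 3 month kidney and -0.58 without the second, and from 12 to 24 months it was -0.04 without the second 12 month kidney and -0.32 without the second 24 month kidney. From 3 to 24 months 77 of the 84 nuclear members had a lower mean, but in only 8 (9.52%) did the older group lie wholly below, beside 10.1% of all genes. In the other comparisons this held for 3 members from 3 to 12 months and 10 from 12 to 24 months (3.57% and 11.9%), beside 9.4% and 12.2% of all genes. In each comparison 1 nuclear member (1.19%) lay wholly above, beside 10.9%, 11.9% and 13.5% of all genes. DESeq2 called 0, 1 and 1 nuclear members up and none down, and the 1 was Cox6b2 both times, beside 2.42% and 1.64% of all genes it called up in the last 2 comparisons.

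The nuclear share followed the balance of short and long transcripts within every age. At 3 months the short-transcript measure was 0.44, -0.20 and 0.95 in kidneys 1 to 3, at 12 months 0.01, 0.67 and -0.04, and at 24 months -0.24, 0.28 and -0.00. In each age the kidney with the highest measure had the highest nuclear share and the kidney with the lowest measure had the lowest. The mitochondrial share did not keep this order. The mean of the measure also went down with age, at 0.40, 0.21 and 0.01. With it as a covariate the median log2 fold changes of the nuclear members were -0.02, -0.08 and -0.05.

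**Figure D4:**
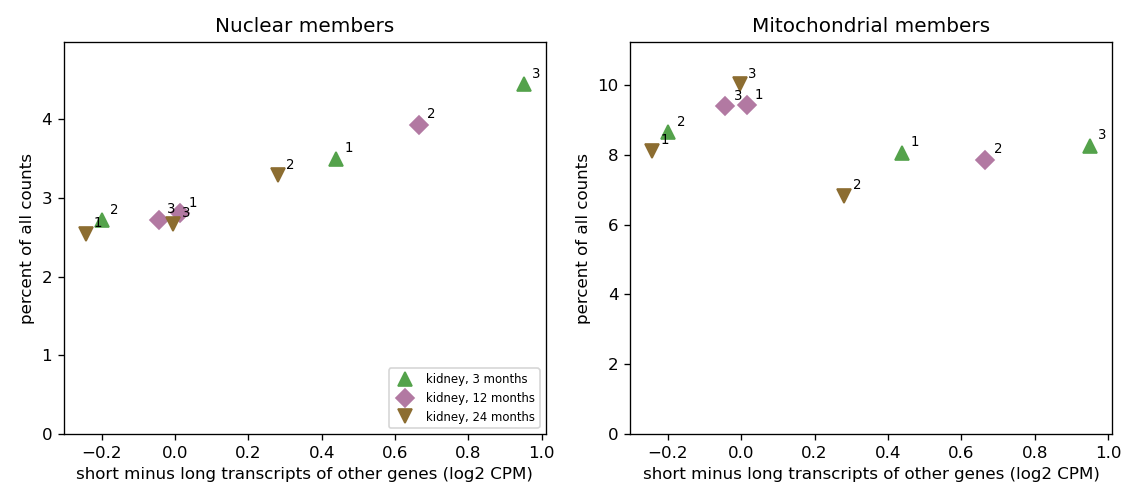
Percent of all counts on the nuclear members (left) and the mitochondrial members (right) against the mean log2 level of short minus long transcripts of other protein-coding genes, with 1 point per kidney, numbered by replicate, and colour and shape by age. The kidney lowest on this axis has a nuclear share of 2.54% and the highest one 4.44%, while the mitochondrial share shows no such order.

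Single members show the same order of kidneys. Uqcrh stood at 544, 308 and 960 CPM at 3 months, 348, 762 and 334 at 12 months and 284, 485 and 321 at 24 months. Sdha, whose exons span 4126 bases, went the other way, at 650, 1004 and 507, then 934, 522 and 962, and then 1032, 749 and 1010 CPM. In both genes the kidneys of 1 age differed more than the ages did. Across the 84 nuclear members the rank correlation of the deviation from the age mean with exonic length was between -0.28 and 0.34 in the 9 kidneys. It was negative in the 4 kidneys with the highest short-transcript measure and positive in the other 5, and these genes share a library and are no independent replicates.

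Cox6b2, the gene that rose in senescent PTEC, stood at 3.05, 2.72 and 5.35 CPM at 3 months, 3.75, 4.19 and 3.09 at 12 months and 5.88, 9.24 and 7.63 at 24 months. The 24 month kidneys lay above all 6 younger ones. The log2 fold change was 1.03 ± 0.29 (SE) from 3 to 24 months and 1.04 ± 0.29 from 12 to 24 months, with edgeR adjusted p of 0.11 and 0.13, so it was not called. DESeq2 gave adjusted p of 0.027 and 0.024. With the short-transcript covariate Cox6b2 was called up in both comparisons, by 1.37 and 1.19 (edgeR adjusted p 0.0011 and 0.0015), and without the third 3 month kidney it was called from 3 to 24 months, by 1.39 (edgeR adjusted p 0.047). The covariate also called Cox6a2 up from 3 to 24 months, by 2.12 (edgeR adjusted p 0.038), and Cox7a1 by 0.57, beside 5.52% of all genes, so that these 3 of 84 nuclear members are a share below the background. The means were 3.68 ± 0.557 CPM at 12 months and 7.58 ± 1.68 at 24 months (SD, n = 3 each).

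The kidneys of 12 and 24 months with the same number deviated together, with correlations of 0.33 to 0.70. They came from different mice, and neither the labels nor the study's methods pair them by number. The fit that blocks on this number was chosen after seeing the data. With the replicate number as a block in these 6 kidneys alone, Cox6b2 rose by 1.03 (edgeR adjusted p 0.0060), and Ndufb4 fell by 0.70, Atp5s by 0.62 and Sdhd by 0.53, with adjusted p of 0.015, 0.010 and 0.021. That fit called 7.77% of all genes up and 5.41% down, so that 1 and 3 of the nuclear members are no more than the background. Ndufb4, an accessory subunit of complex I, stood at 58.3, 152 and 55.4 CPM at 12 months and at 35.5, 70.9 and 45.7 at 24 months. Sdhd stood at 363, 712 and 341 and then at 252, 416 and 279.2 CPM. In both genes each 24 month kidney was lower than the 12 month kidney of the same number, though the ages overlapped. With the short-transcript covariate Ndufb4 and Sdhd had log2 fold changes of -0.32 and -0.28, which do not pass 0.5, while Atp5s fell by 0.53 and Ndufa4l2 by 0.52, beside 3.68% of all genes called down and 5.34% called up in that fit. With the block in all 9 kidneys no nuclear member was called.

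The alternative subunits of complex IV differed between single kidneys. Cox8b (chr7:140898945-140900446), the form of subunit 8 in heart, muscle and brown fat, stood at 5.62, 0.04 and 14.01 CPM at 3 months, 0.07, 0.69 and 0.02 at 12 months and 0.06, 0.02 and 2.81 at 24 months. It had 1 to 623 counts, and 3 kidneys held nearly all of them. The brown fat gene Ucp1 stood at 13, 0.18 and 30.3 CPM in the 3 month kidneys and at 2.03 in the third 24 month kidney, and was at most 0.08 in the other 5. Cidea followed the same kidneys at 3.62, 8.53 and 6.77 CPM, while Cpt1b was at most 0.53 in all 9. The sum of these 3 markers ranged from 0.594 to 39.4 CPM at 3 months, from 0.251 to 0.724 at 12 months and from 0.471 to 9.11 at 24 months. Of 5 skeletal muscle markers, Myh4 was at 0 in every kidney and the sum of all was at most 1.53 CPM. Their part in the Cox8b values was not tested.

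Cox7a1 stood at 18.7, 7.44 and 41.8 CPM at 3 months, 9.80, 30.96 and 10.9 at 12 months and 10.8, 24.0 and 12.3 at 24 months. Its highest kidney at each age was the one with the highest short-transcript measure. From 3 to 24 months its log2 fold change was -0.53 ± 0.65 (SE, edgeR adjusted p 0.63), and with the covariate it turned to 0.57 and passed the threshold (adjusted p 0.020).

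**Figure D5:**
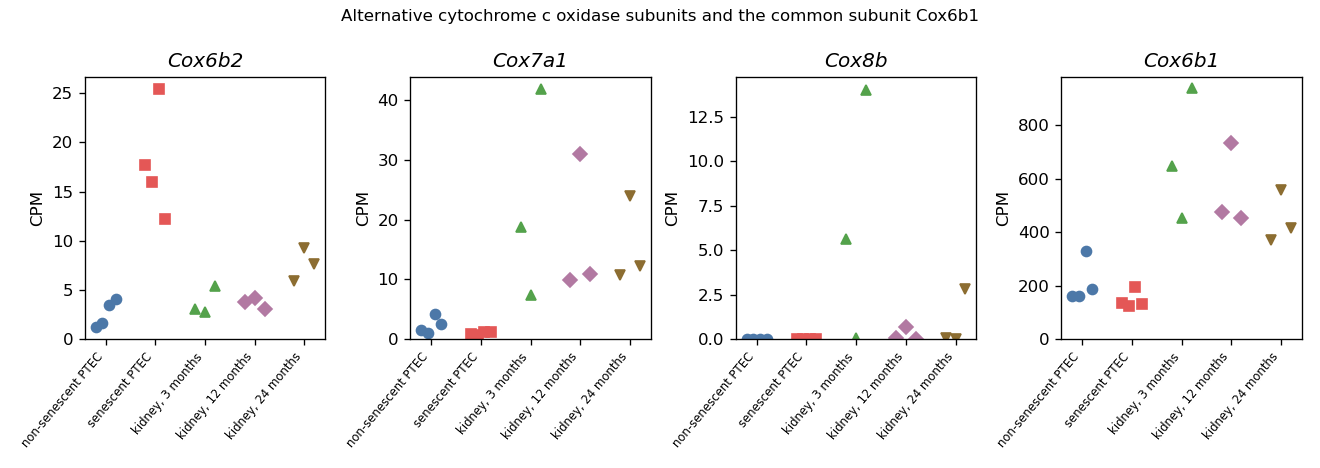
CPM of the alternative complex IV subunits Cox6b2, Cox7a1 and Cox8b and of the common subunit Cox6b1 in 5 groups, with 1 point per library and a linear axis from 0. Senescent PTEC stand highest in Cox6b2, at 12.2 to 25.4 CPM, and 3 kidneys stand out in Cox8b.

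Among the mitochondrial members, mt-Co2 was the only one that edgeR called with age in the main fit of all 9 kidneys. It encodes subunit 2 of complex IV and lies in the low-count stretch. It stood at 2.21, 2.52 and 2.54 CPM at 3 months, 6.78, 7.29 and 7.02 at 12 months and 7.62, 5.47 and 7.93 at 24 months, from 84 to 516 counts. The log2 fold change was 1.54 ± 0.18 (SE) from 3 to 12 months and 1.53 ± 0.18 from 3 to 24 months, with edgeR adjusted p of 0.0052 and 0.0041. From 12 to 24 months it was -0.01. The step from 3 months to the older ages cannot be told apart from the change of gene set, from 54146 to 55401 listed genes. The mitochondrial ribosomal RNAs took 0.691% to 1.67% of counts at 3 months and 0.440% to 0.674% in the 6 older kidneys, groups that do not overlap, and their part in the mt-Co2 difference was not tested. mt-Co1, which lies next to it, is copied in part and encodes subunit 1 of the same complex, had log2 fold changes of 0.12, 0.05 and -0.07 and stood at 19827 to 31419 CPM.

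In mt-Atp8, mt-Atp6, mt-Nd3 and mt-Nd4l of the same stretch 1 kidney stood far above the rest. In mt-Atp8, mt-Atp6 and mt-Co3 all 3 kidneys of 24 months were higher than every kidney of 3 months, as in mt-Co2, and in mt-Nd3 all were lower. This is 4 of 13 mitochondrial members higher and 1 lower, beside 11.9% and 10.1% of all genes. All of them lie in the low-count stretch, and of the 7 members outside it 0 were wholly higher and 0 wholly lower. mt-Atp8 stood at 112 CPM (7358 counts) in the first 24 month kidney and at 0.13 to 0.54 CPM (5 to 28 counts) in the other 8. mt-Atp6, which overlaps it in the genome, stood at 76.9 CPM in the same kidney and at 2.21 to 11.7 in the others. mt-Nd3 stood at 16.9, 12.5 and 145 CPM at 3 months, at 9.43 to 10.4 at 12 months and at 9.88 to 11.8 at 24 months, and mt-Nd4l at 7.01 CPM in the first 3 month kidney and at 0.22 to 0.69 in the others. mt-Co3 ran from 3.69 to 4.805 CPM at 3 months, from 6.06 to 14.8 at 12 months and from 9.38 to 43.1 at 24 months, and had an edgeR adjusted p of 0.051 from 3 to 24 months. With 1 kidney left out its log2 fold change ran from 1.93 to 2.95, that of mt-Atp6 from 1.85 to 4.19 and that of mt-Atp8 from 1.21 to 8.32. All 12 month kidneys also lay above all 3 month kidneys in mt-Atp8, mt-Atp6 and mt-Co3 and below them in mt-Nd3, which were not called. DESeq2 called mt-Co2, mt-Atp8, mt-Atp6 and mt-Co3 from 3 to 24 months. Without the first 24 month kidney edgeR called mt-Co2, mt-Atp6 and mt-Co3. Without the second 3 month kidney mt-Nd3 fell in both comparisons with 3 months.

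The pathway lists gave almost no calls with age. No gene passed in the lists of assembly factors, mitochondrial ribosomal proteins, regulators, electron carriers or the citric acid cycle in any age comparison in edgeR. The 1 exception was Polg2, the accessory subunit of the mitochondrial DNA polymerase, which fell by 0.85 from 12 to 24 months, from 8.85 ± 0.289 to 4.91 ± 0.566 CPM (SD, n = 3 each, edgeR adjusted p 0.037). From 3 to 24 months the medians were -0.36 for assembly factors, -0.42 for mitochondrial ribosomal proteins and -0.19 for the genes of mitochondrial DNA and RNA, while those of the citric acid cycle and the regulators were 0.04 and 0.32. In the same comparison 2 of 14 proximal tubule and 2 of 9 leukocyte markers rose, beside 1.89% of all genes, and the median log2 fold changes were 0.93 for leukocyte, 0.56 for fibroblast and pericyte and -0.61 for collecting duct markers. Their part in the values of the members was not tested. From 3 to 24 months none of the 7 loop of Henle and distal tubule, 7 collecting duct, 5 podocyte, 6 endothelial or 8 fibroblast markers was called.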

How the data were processed

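RNA was sequenced as stranded poly(A) libraries with 76-base paired reads from 8 PTEC cultures and 9 kidneys. Per the labels and the study's methods, the authors aligned to GRCm38 with nf-core/rnaseq 1.4.2 and GENCODE release 18 of the mouse annotation; the counter, its strand setting and its handling of reads with several matches are not given in the sources used here. The deposited values are raw counts per gene, and the ranges of total counts in PTEC and in the kidneys are given above. Symbols, exonic lengths and coordinates were taken from GENCODE release 21 (GRCm38). The members and lists were chosen with earlier results of these data known.

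Counts were scaled by TMM and tested with edgeR 4.0.16 in R 4.3.3 (quasi-likelihood, filterByExpr, Benjamini-Hochberg over all genes tested), with PTEC and the 9 kidneys in separate fits. Calls needed both an adjusted p below 0.05 and an absolute log2 fold change over 0.5. CPM and RPKM were computed from the counts. The named genes were the mitochondrial members, the Sdh genes, the alternative isoforms, the 6 lowest log2 fold changes among called nuclear members and the 1 that rose, the 5 highest and 5 lowest kidney levels and the 3 largest and 3 smallest called changes of each list. Ndufs1, Ndufs7, Ndufb4, Ndufb5, Ndufa1, Ndufa5, Ndufa13, Ndufs5, Cox5a, Cox5b, Uqcrh, Uqcrc1, Uqcrfs1, Atp5a1, Atp5b, Atp5o, Lrpprc, Nrf1 and Esrrg, where outside this rule, were chosen after their values were seen. Atp5c1, Atp5d, Atp5e, Atp5f1, Atp5h, Atp5j and Atp5l were named for being called or not called in the fits described, and Ndufb6 for its shared windows.

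Same-numbered PTEC cultures deviated together (correlations of 0.21 to 0.69), as did kidneys of 12 and 24 months (0.33 to 0.70) but not those of 3 months with either (-0.81 to -0.04). Alternatives were DESeq2 1.42.0, its size factors, library size alone, scaling without mitochondrial genes, no filter, a log2 threshold of 1, a replicate block, each library left out and, chosen after seeing the data, a short-transcript covariate, both cultures numbered 3 left out, the block in the kidneys of 12 and 24 months alone, and the ratio without the low-count stretch. The scripts were tested on simulated data.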

Additional observations from a re-analysis of the deposited data

Results flagged for a closer look

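Dixon's criterion was applied to 72 sets of 4 cultures, each 1 measure in 1 group, and 20 had a culture far from the other 3, where chance gives about 1 in 20, and in each case it was the culture numbered 3. In the non-senescent group its short-transcript measure was -0.358 against -1.22 to -1.15. It was the highest culture in Sdhc (200 CPM), Cox6b1 (331.0), Atp5g1 (170.0), Cyc1 (292.0), Atp5g2 (82.7), Atp5o (340.0) and Cox7a2l (155.0). In the senescent group its short-transcript measure was -0.924 against -1.45 to -1.40, and its nuclear members took 0.965% of counts against 0.716% to 0.719%. It was the highest culture in Sdhc (131.0 CPM), Sdhb (97.6), Cox6a1 (214.0), Ndufa4 (189.0), Cox6b1 (193.0), Cox7a2 (95.0), Atp5o (134.0), Cox8a (155.0) and Cox7b (114.0), and in mt-Co3 of the low-count stretch, at 2.08 against 0.449 to 0.636 CPM. These members share a library, and the cause was not tested.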

How the results depend on the processing

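Of 428 values of the comparisons under an alternative 404 stayed within the limits set for a change and 24 moved. In PTEC the nuclear members called down were 14 (17.3%) with the short-transcript covariate, beside 18.5% of all genes, and the covariate gave a median of -0.19. With 1 culture left out they were 15 (18.5%) to 42 (51.9%), beside 15.1% and 19% of all genes in those 2 fits. At a log2 threshold of 1 they were 6, and the share of all genes at that threshold is not given here. From 3 to 24 months the nuclear members called up were 3 with the covariate and 1 with DESeq2 (0 to 1 with 1 kidney left out), and the mitochondrial members called up were 4 with DESeq2 (1 to 3 with 1 kidney left out, and 0 to 1 called down). Of all genes in this comparison the covariate fit called 5.52% up and DESeq2 2.42%. Cox7a1 turned to 0.57 with the covariate. From 12 to 24 months the nuclear members called up were 1 with the covariate, 1 with DESeq2 and 1 with the replicate block in these ages alone, those called down were 2 with the covariate and 3 with this block, and DESeq2 called 2 mitochondrial members up. Of all genes the covariate fit called 5.34% up and 3.68% down, this block 7.77% up and 5.41% down, and DESeq2 1.64% up. From 3 to 12 months, with 1 kidney left out, 0 to 1 mitochondrial members were called down and the mitochondrial median was 0.042 to 0.28. With each member weighted alike the log2 ratio difference was 0.76 from 3 to 24 months and 0.52 from 12 to 24 months. This weighting gives each gene of the low-count stretch as much weight as each mitochondrial gene outside it. The cause was not tested. With the replicate block in PTEC, where no pairing by number is stated, 40 nuclear members were called down, beside 21.3% of all genes. Of these 40, 34 were among the 36. Of 2057 values of single genes 28 lost and 25 gained a call.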
